A study of Mus musculus with 20 samples.

Results

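The RAD21 peak lists of untreated parental cells (WT) and of the same cells after 2 days of auxin (ΔCTCF) were compared at gene promoters and at the sites that both lists held. RAD21 is the kleisin subunit of cohesin, and its position was measured by chromatin immunoprecipitation with sequencing (ChIP-seq). All peaks of both lists were taken, 20371 in WT and 17912 in ΔCTCF, which together are 38283 of the 136043 peaks in the 12 lists of the series. The cells are mouse embryonic stem cells (mESCs) of the E14 line in which CTCF carries an auxin-inducible degron, a tag that leads to degradation of the protein once auxin is added, so WT cells carry the tagged CTCF too. They were grown with LIF and 2 inhibitors (of MEK1/2 and GSK3) that hold them in the undifferentiated state. Lists of the same line with a Maz knockout, untreated (ΔMAZ) and after 2 days of auxin (ΔCTCF/ΔMAZ), were used only beside the parental ones. The labels tie those to a clone named B2. Whether the parental degron line is 1 clone is not given in the sources used here. Each condition had 1 RAD21 list, so replicate error is unknown and nothing was tested for significance.

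Cohesin is a ring complex that extrudes loops of chromatin. CTCF, a zinc finger protein, halts it at CTCF sites in an orientation-dependent manner, and these sites form loop anchors and domain borders in mESCs. Cohesin is loaded and held at other places as well, among them active promoters, and MAZ is a further zinc finger protein that binds G-rich promoter sequence.

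The 2 libraries differed in depth. An index of depth solved from the deposited values put ΔCTCF at 2.18 times WT, ΔMAZ at 1.29 times and ΔCTCF/ΔMAZ at 0.931 times. CTCF peaks numbered 26394 in WT and 2381 after auxin, and MAZ peaks 6265 in WT and 33 in ΔMAZ. Median RAD21 fold enrichment over background was 10.0 in WT and 4.85 in ΔCTCF. A peak that a list lacks is therefore a site that was not called at that depth, not a site free of RAD21. Throughout, "gained" means that a promoter had a RAD21 summit within 1 kb of a transcription start site (TSS) in ΔCTCF only, "lost" in WT only and "kept" in both, and these words describe lists, not tests.

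Of 21938 protein-coding genes, 3076 gained, 849 lost and 1247 kept a RAD21 peak at the promoter, while 16766 had none in either list. Gained promoters were 14% of all genes tested, lost promoters 3.87% and kept promoters 5.68%. The gained promoters shared 2800 peaks and the lost ones 813, because neighbouring genes can share a peak, so genes are not independent. The balance between gains and losses depended on depth. When ΔCTCF was thinned to the depth of WT, 1946 gained and 1055 lost promoters were expected. With a stricter limit, the 5th percentile of −log10 p in WT, the order turned to 481 gained and 1333 lost.

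Among all peaks, 34.5% (95% interval 33.6 to 35.5) of the 10019 ΔCTCF peaks that overlapped no WT peak ("new") lay within 1 kb of a TSS. The same share was 9.03% (8.54 to 9.54) of the 12452 WT peaks that overlapped no ΔCTCF peak and 13.1% (12.4 to 13.8) of the 7919 WT peaks that did. All intervals cover counting error over the features of these single libraries only.

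To show which sequence lay under the changed summits, the summit with 50 bases to either side is given for the strongest promoters of each class, on the forward strand of mm10. The first 3 are the gained promoters of Pfdn4 (chr2:170511067-170511167), Zfp738 (chr13:67683664-67683764) and Tbrg1 (chr9:37657366-37657466). The next 3 are the lost promoters of Gse1 (chr8:120535098-120535198), Gm12166 (chr11:46052410-46052510) and Zfp345 (chr2:150485513-150485613), and the last is the kept promoter of Fam19a2 (chr10:123263925-123264025). None held an exact match to one of the 8 strings searched, and the capital marks the summit. Exact matching is strict. Within 201 bases, 14.2% of lost promoter summits held the 12-letter CTCF string, while 79.7% of lost promoter peaks overlapped a CTCF peak of WT. A window without a match can therefore still hold a variant CTCF site. The peaks of Pfdn4, Gse1, Gm12166, Zfp345 and Fam19a2 sat on a CTCF peak of WT.
Pfdn4: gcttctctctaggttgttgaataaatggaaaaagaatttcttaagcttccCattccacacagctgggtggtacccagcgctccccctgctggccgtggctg
Zfp738: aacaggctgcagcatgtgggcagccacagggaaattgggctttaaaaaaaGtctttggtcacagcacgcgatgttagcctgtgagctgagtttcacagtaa
Tbrg1: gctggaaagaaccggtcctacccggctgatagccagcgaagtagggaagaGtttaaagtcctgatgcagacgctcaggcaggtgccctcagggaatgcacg
Gse1: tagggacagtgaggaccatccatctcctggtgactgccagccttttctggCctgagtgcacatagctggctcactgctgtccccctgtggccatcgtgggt
Gm12166: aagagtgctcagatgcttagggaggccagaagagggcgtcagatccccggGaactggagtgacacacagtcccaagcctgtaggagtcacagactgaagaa
Zfp345: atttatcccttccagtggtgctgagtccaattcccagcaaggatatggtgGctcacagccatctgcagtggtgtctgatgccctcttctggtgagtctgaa
Fam19a2: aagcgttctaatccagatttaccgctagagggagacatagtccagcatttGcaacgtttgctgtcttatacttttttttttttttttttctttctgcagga

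The next windows were picked because they hold a match, going down the same order of fold enrichment, to show where matches sat. Capitals mark a GC box (GGGCGGG on either strand) at the gained promoters of Scaf11 (chr15:96460973-96461073) and A4galt (chr15:83251777-83251877). At the lost promoter of Ralgds (chr2:28547959-28548059) and the kept promoters of Cd276 (chr9:58540010-58540110) and Ckm (chr7:19405537-19405637) they mark the CTCF core, a 12-letter consensus of the CTCF site.
Scaf11: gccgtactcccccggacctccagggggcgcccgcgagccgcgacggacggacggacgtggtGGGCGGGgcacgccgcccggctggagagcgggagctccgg
A4galt: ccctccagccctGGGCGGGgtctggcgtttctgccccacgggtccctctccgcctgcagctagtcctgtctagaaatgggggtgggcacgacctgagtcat
Ralgds: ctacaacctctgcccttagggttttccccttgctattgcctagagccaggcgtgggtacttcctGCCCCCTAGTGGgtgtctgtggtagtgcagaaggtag
Cd276: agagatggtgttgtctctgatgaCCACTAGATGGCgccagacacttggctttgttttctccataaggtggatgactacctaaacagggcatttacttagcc
Ckm: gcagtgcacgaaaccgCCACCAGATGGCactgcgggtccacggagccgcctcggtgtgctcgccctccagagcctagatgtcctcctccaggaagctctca

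Gained promoters carried RAD21 close to the TSS. The strongest summit lay a median of 105.5 bp from the nearest TSS (upper bound 111) at gained promoters, 139 bp (124 to 156) at kept and 283 bp (249 to 327) at lost ones. It was within 100 bp of the TSS at 48.1% of gained, 40.7% of kept and 27.7% of lost promoters. In each class more summits were upstream than downstream of the TSS, with 36.2% of gained, 28.2% of kept and 35.0% of lost summits downstream.

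**Figure D1:**
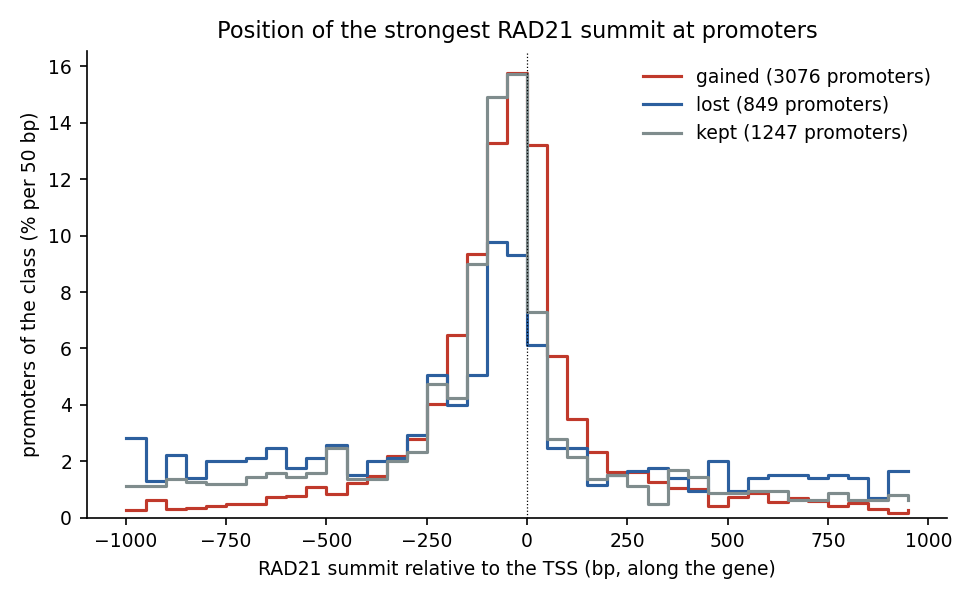
Distance of the strongest RAD21 summit from the TSS, in bp along the gene, against the share of promoters per 50 bp, for the 3076 gained, 849 lost and 1247 kept promoters. Gained and kept promoters pile up just upstream of the TSS, while lost ones have a lower peak there and more summits spread over the window.

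The classes also differed in the other factors on the RAD21 peak, which for kept promoters is the ΔCTCF peak here and in the distances to the TSS. A CTCF peak of WT overlapped the RAD21 peak at 81.2% (78.4 to 83.6) of lost, 66.2% (63.5 to 68.7) of kept and 3.77% (3.15 to 4.50) of gained promoters. Read on WT peaks in both classes, lost and shared promoter peaks did not separate, with 79.7% (77.3 to 82.0) and 79.0% (76.4 to 81.3) on CTCF. A CTCF peak that was still called after auxin lay at 20.4% (18.2 to 22.7) of kept, 1.53% of lost and 0.715% of gained promoters. MAZ showed the other order: a MAZ peak of ΔCTCF overlapped the RAD21 peak at 38.5% (36.8 to 40.2) of gained, 24.3% (22.0 to 26.8) of kept and 7.30% (5.74 to 9.25) of lost promoters. With 50% reciprocal overlap the gained share was 24.2%. A MAZ peak of WT overlapped the RAD21 peak at 34.4% (32.7 to 36.1) of gained promoters.

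Promoter sequence differed as well, in windows from 250 bases before to 50 after the gene start. The observed to expected ratio of CpG was at least 0.6 at 73.7% of gained, 61.8% of kept, 52.5% of lost and 37.3% of the remaining promoters, against 44.4% of all. The ETS string CCGGAAG was in 19.6% of gained, 11.9% of kept and 11.0% of lost promoters, against 10.8% of all. The GC box GGGCGGG was in 47.3% of gained, 41.1% of kept and 35.7% of lost promoters, against 31.5% of all. Other strings had another order. The MAZ string GGGGAGGG was in 12.8% of gained, 14.4% of kept and 14.1% of lost promoters, against 11.2% of all. The CCAAT string GCCAAT was in 17.9%, 14.1% and 13.9%, against 17.0% of all. Both strands were searched, and a match is a description, not a bound site.

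At the summits themselves the strings were compared with flanking sequence. Within 201 bases centred on the summit, 34.8% of new promoter peaks held the GC box, against 12.2% of equal windows centred 500 bp to either side. The ETS string was in 11.4% against 3.18%, the NRF1 string GCGCATGCG in 2.14% against 0.246%, and the YY1 string AAGATGGCG in 1.36% against 0.347%. Shared promoter summits also held these strings above their flanks, the GC box in 22.4% against 10.1%, ETS in 5.79% against 2.36%, NRF1 in 1.16% against 0.193% and YY1 in 0.869% against 0.338%. At lost promoter summits the GC box was in 10.6% against 8.01% and the YY1 string in 0.979% against 0.311%. NRF1 and YY1 are activators of many housekeeping genes. At new promoter summits the MAZ string GGGGAGGG was in 8.13% against 6.62% of flanks. It was in 5.69% against 5.94% at shared and in 3.38% against 6.45% at lost promoter summits. The CTCF core was in 0.405% of new promoter summits, against 14.2% of lost and 15.7% of shared promoter summits.

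The strongest gained promoters had fold enrichments of 8.34 to 13.3 in ΔCTCF and no peak in WT. Pfdn4, a subunit of the chaperone prefoldin, led with 13.3 (55 reads at the summit, chr2:170510910-170511324, at −118 bp from a TSS). This peak sat on a CTCF peak of both WT and ΔCTCF cells and was called in ΔMAZ and in ΔCTCF/ΔMAZ, so among the 4 RAD21 lists only WT lacked it. The zinc finger gene Zfp738 followed with 9.92 and Tbrg1 with 9.51, neither with CTCF or MAZ on the peak. Lrp6, a co-receptor of Wnt signalling, and Xpo6, an exportin that carries actin out of the nucleus, both had 9.05 with a MAZ peak in WT and ΔCTCF. The Cacng2 promoter, of an auxiliary subunit of AMPA glutamate receptors, had 9.04, Poldip3 8.81, Scaf11 8.58, Bpi 8.50 and the mitochondrial carrier gene Slc25a26 8.34. The Scaf11 and Bpi peaks sat on a CTCF peak of WT, as did 3.77% of all gained promoters. Both were also called in ΔMAZ and ΔCTCF/ΔMAZ, and Scaf11 had MAZ on the peak as well. Cacng2, Poldip3 and Slc25a26 had neither CTCF nor MAZ on the peak. Of the 3076 gained promoters, 13.5% (12.4 to 14.8) had a summit in the ΔMAZ list, where no auxin was given, and 16.5% (15.3 to 17.9) in ΔCTCF/ΔMAZ. Of the genes with no peak in WT or ΔCTCF, 2.33% and 1.91% had one, and of all genes 11.7% and 6.84%. The ΔMAZ share was 38.9% (32.7 to 45.5) of the 221 that had a chance of at least 50% to pass the stricter limit at the depth of WT, and 11.6% (10.4 to 12.8) of the rest.

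The strongest lost promoters had higher values, 25.2 to 30.9 in WT. Gse1 led with 30.9 (chr8:120534981-120535347, at −709 bp from the nearest TSS, in an intron of the gene). Gm12166 had 29.1, Zfp345 29.1, the natriuretic peptide receptor gene Npr1 27.0 and the aminotransferase gene Aadat 26.5. The cold-inducible RNA-binding protein gene Cirbp had 25.7, Ralgds 25.3, the hyaluronan-degrading Cemip 25.2 and the kinesin gene Kifc2 25.2. All of these 9 peaks sat on a CTCF peak of WT and were called in ΔMAZ, and none sat on a CTCF peak called after auxin. Of the 9, the Gm12166 site alone was called in ΔCTCF/ΔMAZ. Over all lost promoters, 75.6% had a RAD21 summit in ΔMAZ and 6.24% in ΔCTCF/ΔMAZ, against 11.7% and 6.84% of all genes.

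Promoters of several housekeeping families had a larger gained share than all genes. Of 39 proteasome subunit genes, 13 gained a peak (33.3%, against 14% of all genes), 1 lost and 1 kept one, with Psmd8 at 5.72, Psmd6 at 5.28 and Psmc2 at 4.85. Of 84 cytosolic ribosomal protein genes, 25 gained (29.8%), 4 lost and 1 kept a peak, led by Rps27a at 7.15 and Rpl15 at 6.67. Of 78 mitochondrial ribosomal protein genes, 23 gained (29.5%), 1 lost and 9 kept a peak. Lost and kept shares were 2.56% and 2.56% for proteasome and 4.76% and 1.19% for cytosolic ribosomal protein genes. They were 1.28% and 11.5% for mitochondrial ribosomal protein genes, against 3.87% and 5.68% of all genes. Translation initiation factors had 15 gained of 55 (27.3%), among them Eif4a2 at 7.06, the RNA helicase subunit of the cap-binding complex, and Eif3d at 6.96. Heat shock genes had 6 gained of 15, with the chaperones Hspa8 at 6.67 and Dnaja1 at 6.19, and none lost. In DNA replication licensing 6 of 21 gained, none of them above 4.38 (Orc5). After thinning to the depth of WT the expected shares were 18.9% for proteasome, 19.3% for cytosolic and 22.1% for mitochondrial ribosomal protein genes, against 8.87% of all genes. With the stricter limit they were 3.34%, 5.81% and 6.70%, against 2.19% of all genes, and replication licensing was at 1.01%, below all genes.

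Genes of the pluripotency network, which keeps mESCs undifferentiated, had 9 gained of 32 (28.1%, against 14% of all genes). A further 2 lost (6.25%, against 3.87%) and 4 kept a peak (12.5%, against 5.68%). The gained genes included the core factors Pou5f1 (fold enrichment 4.67), Sox2 (4.01) and Nanog (3.72). They also included Esrrb (7.31), Klf2 (6.46) and Klf4 (5.96), factors of the naive state, together with Nr5a2 (4.53) and the 5-methylcytosine dioxygenase genes Tet1 and Tet2 (5.24 each). MAZ of ΔCTCF lay on 6 of the 9 peaks, those of Esrrb, Klf2 and Klf4 among them, against 38.5% of all gained promoters. For gained proteasome genes it was 3 of 13, and for replication licensing 3 of 6. For cytosolic and mitochondrial ribosomal protein genes it was 8 of 25 and 5 of 23. Fgf4 lost a peak of 5.65 at −990 bp from its TSS, and Klf5 one of 4.91. Tbx3 kept its peak at 8.69 in WT and 9.04 in ΔCTCF, which moved it from the 42nd to the 85.7th percentile of its list. After thinning, 22.7% of the list was expected to gain, against 8.87% of all genes, and with the stricter limit 9.89% against 2.19%. Under that limit Pou5f1 had a chance of 10.0% to pass, Sox2 10.5% and Nanog 2.20%, against 85.7% for Esrrb. The embryonic stem cell label was not checked by expression, since the lists measure none.

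Few receptor genes of the olfactory system had a called peak. Of 1093 olfactory receptor genes 1 gained (0.0915%, against 14% of all), 4 lost (0.366%, against 3.87%) and none kept a peak, and none of 327 vomeronasal receptor genes had one. Lineage factors that are silent in mESCs had 4 gained, 1 lost and 3 kept of 30. These shares were 13.3%, 3.33% and 10%, against 14%, 3.87% and 5.68% of all genes. Among these factors, Runx1 had 5.48 and Sox17 5.24 in ΔCTCF, and Foxa1 lost a peak of 10.4. Of 16 fibroblast markers 1 gained (Fn1, 3.71; 6.25%, against 14% of all) and 2 kept a peak (12.5%, against 5.68%). The latter were Pdgfra, at 36.5 in WT and 16.7 in ΔCTCF, and Col1a1, at 32.0 and 13.9. Of 66 replication-dependent histone genes 4 gained (6.06%), 1 lost (1.52%) and 2 kept a peak (3.03%), against 14%, 3.87% and 5.68% of all genes.

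The clustered protocadherins, neuronal adhesion genes whose promoters carry CTCF sites, showed the opposite balance. Of 57 genes 12 lost a peak (21.1%, against 3.87% of all), 15 kept one (26.3%, against 5.68%) and 1, Pcdhga4, gained one. Pcdhac1 had 12.2 in WT, Pcdhb22 11.3 and Pcdha11 8.43, at −80, −69 and −38 bp from the TSS and each on a CTCF peak of WT. Kept members moved both ways. Pcdhga12 was at 47.8 in WT and 6.19 in ΔCTCF (99.2nd to 71.1st percentile), while Pcdhgb7 was at 22.8 and 34.1 (87.1st to 99.7th).

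Hox genes, which pattern the body axis and are separated by CTCF sites, had 6 kept of 39 (15.4%, against 5.68% of all), 4 gained (10.3%, against 14%) and none lost (against 3.87%). The 6 kept genes rested on 5 peaks. Hoxc5 and Hoxc10 shared a peak of 39.1 in WT and 17.9 in ΔCTCF, Hoxa7 had 38.8 and 18.3, Hoxa5 27.0 and 18.3, Hoxb5 17.0 and 7.62, and Hoxd10 13.0 and 6.91. The fold enrichments of all 5 peaks were lower in ΔCTCF, while their percentiles were 64.2 to 98.0 in WT and 76.8 to 96.9 in ΔCTCF. Gained members included Hoxc13 (7.09), Hoxa11 (4.41) and Hoxb9 (4.19).

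Cohesin, insulator zinc finger, imprinted and aminoacyl-tRNA synthetase genes were of mixed state. Their gained shares were 13.3%, 28.6%, 9.52% and 20% in that order, against 14% of all genes. Lost shares were 6.67%, 14.3%, 4.76% and 10% in the same order, against 3.87%, on 1 or 2 genes each. Kept shares were 20%, 7.14%, 4.76% and 5%, against 5.68%. Among 15 cohesin subunits and regulators, Rad21 (4.29) and Sgo1 (5.72) gained a peak and Stag2 lost one of 6.96. Pds5b kept a strong one, 31.9 in WT and 21.4 in ΔCTCF, and Stag1 (11.8 and 5.003) and Smc3 (5.65 and 4.43) kept weaker ones. Among 14 insulator zinc finger genes, Maz itself (5.003), Zfp281 (5.96), Zfp148 (5.31) and Zfp143 (3.80) gained a peak. Each of these sat on a MAZ peak of ΔCTCF, against 38.5% of all gained promoters. Patz1 had a peak in both lists, but at sites 2087 bp apart (6.87 in WT, 3.77 in ΔCTCF), and Zfp341 and Sp3 lost theirs. Imprinted genes had 2 gained (Zrsr1 and Igf2), 1 lost (Gnas) and 1 kept (Grb10) of 21. Of 20 aminoacyl-tRNA synthetase genes 4 gained, 2 lost and 1 kept a peak.

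**Figure D2:**
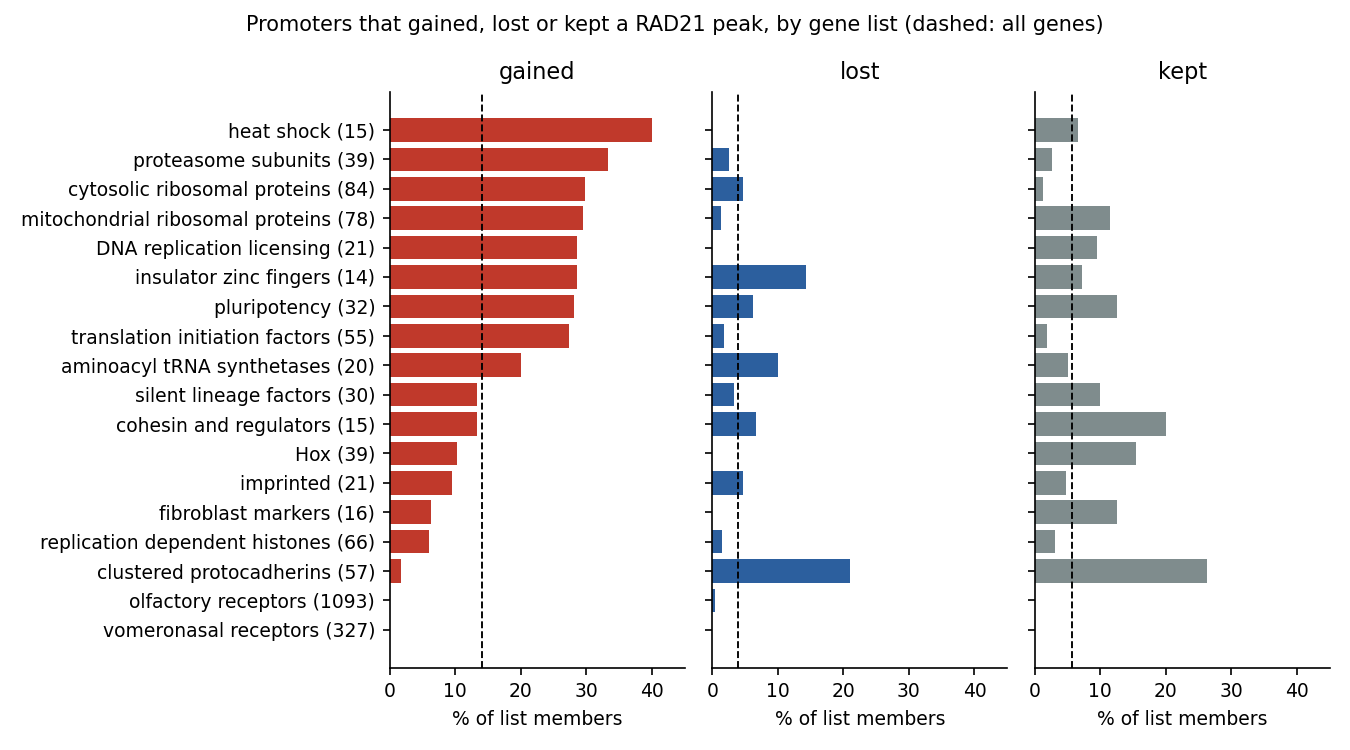
Share of each gene list (number of members in brackets) whose promoter gained, lost or kept a RAD21 peak, in percent of members, with the share of all protein-coding genes as a dashed line (14% gained, 3.87% lost, 5.68% kept). Heat shock, proteasome and ribosomal protein genes lie to the right of the line for gains, and clustered protocadherins for losses and kept peaks.

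Sites that both lists held were then compared peak by peak. WT and ΔCTCF had 7829 pairs of peaks that overlapped one to one. Their summits lay a median of 19 bp apart (18 to 19), and 5.99% (5.49 to 6.54) were more than 100 bp apart. Shifts were larger at promoters (27 bp, 24 to 30, n = 1025) than at distal sites (18 bp, 17 to 19, n = 6804). For the 7369 WT peaks paired in both comparisons, the median shift was 18 bp to ΔCTCF and 12 bp to ΔMAZ.

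CTCF separated these pairs. Where a CTCF peak was still called after auxin (2060 pairs), the median shift was 13 bp (12 to 13). Where CTCF was called in WT only (4978 pairs), it was 19 bp (19 to 20), and at the 791 pairs with no CTCF peak 69 bp (64 to 75). The latter were weak in WT, and shifts were larger at weak sites. Within the weakest of 5 equal strength groups of the WT list the 3 medians were 22, 31.5 and 75 bp. In the comparison of WT with ΔMAZ, pairs with no CTCF peak had a median shift of 27 bp (26 to 30, n = 1247).

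**Figure D3:**
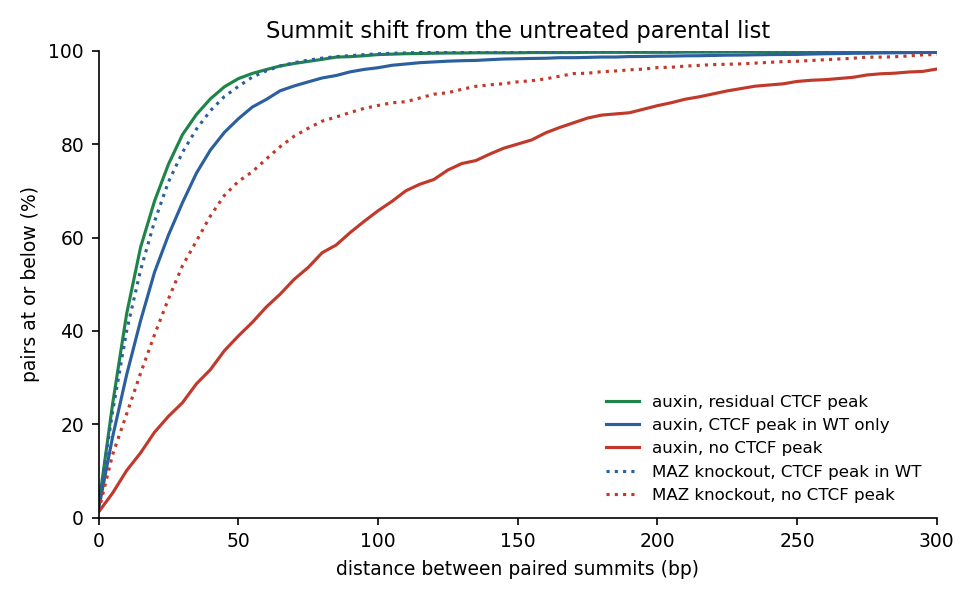
Cumulative share of peak pairs, in percent, by the distance between their summits in bp, from WT to auxin (solid) and from WT to the MAZ knockout (dotted), split by CTCF peaks. The auxin curve for pairs with no CTCF peak rises most slowly, with 34.3% of its 791 pairs beyond 100 bp.

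At sites with a CTCF core RAD21 lay mostly on 1 side of the core in both lists. In 2141 pairs with the core, the WT summit lay a median of 20.5 bp downstream of the centre of the core, read in its own direction, and on that side in 90.1% of pairs (88.7 to 91.2). The ΔCTCF summit of the same pairs lay 21.5 bp downstream, and on that side in 85.6% (84.1 to 87.0). In the 1484 of these pairs with no residual CTCF peak the values were 22.5 bp and 84.8% (82.9 to 86.6). The Cd276 and Ckm windows above show such a core, with the summit at the centre of the window.

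Width followed the same split. Over all pairs the median log2 ratio of width, ΔCTCF over WT, was 0.01, and the sign of this small value depended on the processing. It was 0.17 at pairs with residual CTCF and −0.12 at pairs with CTCF in WT only. At pairs with no CTCF peak it was 0.78 (0.74 to 0.85), with a median width of 244 bp in WT and 460 bp in ΔCTCF. These values depended on strength. In the weakest of the 5 strength groups the medians were 0.34, 0.21 and 0.87 in the same order. In the strongest they were 0.16, −0.17 and −0.36, the last on 4 pairs. Over all promoter pairs the median ratio was 0.16 (0.13 to 0.19). ΔCTCF was 2.18 times as deep, and the part of depth in these values was not tested.

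Rank was used to compare strength, as the percentile of fold enrichment within each whole list. The median change, ΔCTCF minus WT, was 5.23 percentile points at shared promoter sites (3.37 to 7.74) and 1.06 at distal ones (0.65 to 1.44). With only peaks of −log10 q of at least 5, the promoter value was 0.162 and the distal value turned to −2.85. The split by CTCF was wider. Pairs with residual CTCF had a change of 5.14 points, pairs with CTCF in WT only −4.41 points, and pairs with no CTCF peak 46.6 points (43.0 to 48.8), from a median of 9.43 in WT to 60.7 in ΔCTCF. With −log10 q of at least 5 these became 2.99, −9.53 and 38.7, and with equal list lengths 7.09, −2.07 and 48.6. Weak peaks have more room to move up. In the weakest of the 5 strength groups the medians were 51.3 (n = 43), 28.7 (n = 176) and 51.9 points (n = 611) in the same order. Fold enrichments of the 2 lists had a Spearman correlation of 0.545 over the 7829 pairs, against 0.839 over the 16955 pairs of WT and ΔMAZ. These points share libraries and are a description.

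**Figure D4:**
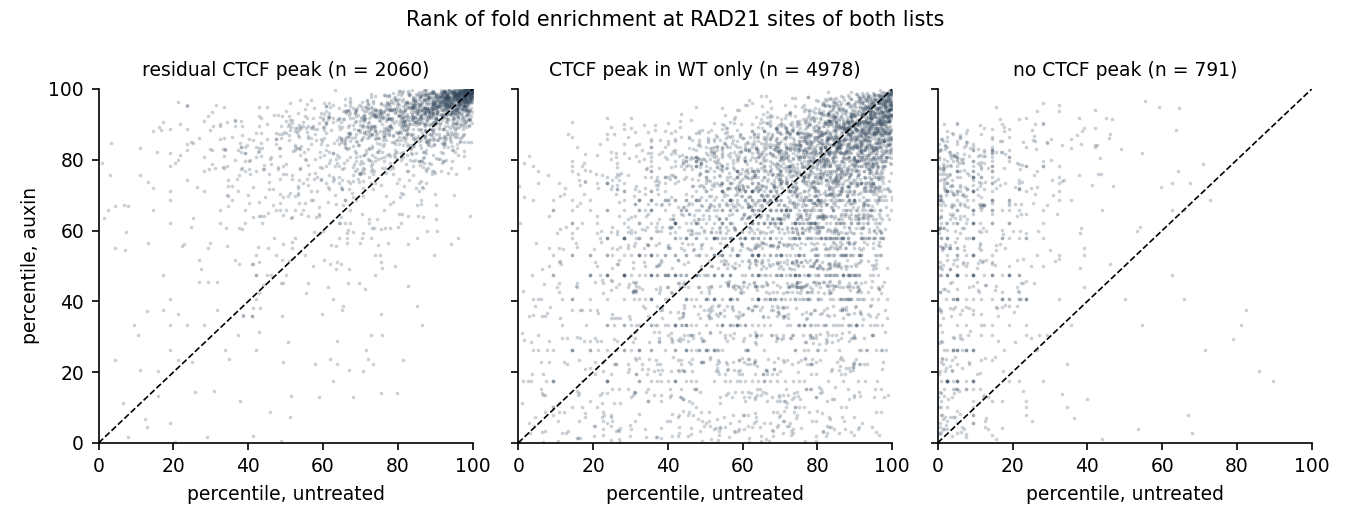
Percentile of fold enrichment in the untreated list (x axis) against that in the auxin list (y axis), 1 point per pair, for 2060 pairs with residual CTCF, 4978 with CTCF in WT only and 791 with no CTCF peak. The dashed line marks equal rank, and most pairs with no CTCF peak lie at the left edge and above it.

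Single promoters show the extremes. The largest negative rank changes were at Pou2f3 (32.3 in WT, 3.11 in ΔCTCF, 92.5 points lower, summit moved by 5 bp) and Snai1, a repressor of epithelial genes (24.9 and 3.05, 87.6 points lower, moved by 174 bp). Rinl (20.3 and 3.28), Rhof (36.5 and 3.92) and the DNA repair gene Nhej1 (19.2 and 3.53) followed. All 5 sat on CTCF in WT and on no residual CTCF peak. The largest positive ones were at Phyhipl (4.35 and 10.0, width 194 bp and 941 bp), Mtif3, a mitochondrial translation initiation factor (4.25 and 8.57, the summit at the same base), Rdm1 (4.35 and 8.34), Schip1 (3.60 and 7.47) and Pgap2 (3.92 and 7.38). Only Pgap2 of these had a CTCF peak. The largest summit shifts at kept promoters with an overlapping pair of peaks were 957 bp at Sgms1, a sphingomyelin synthase gene, 609 bp at the splicing factor gene Rbfox2 and 484 bp at Bbs10, with MAZ on the ΔCTCF peak at all 3.

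Some genes kept a peak at a different place. Of the 1247 kept promoters, 200 (16.0%, 14.1 to 18.2) had no overlapping pair of peaks within 1 kb of any TSS. Their strongest WT summit lay a median of 451.5 bp from the TSS and their strongest ΔCTCF summit 113.5 bp, and the ΔCTCF summit was the closer one at 142 of 200. The WT peak sat on CTCF at 158 of 200 (79.0%), near the 79.7% of lost and 79.0% of shared promoter peaks. The ΔCTCF peak sat on MAZ at 76 (38.0%), near the 38.5% of gained promoters. Many such pairs belonged to different start sites of 1 gene, with a median of 5644 bp between summits. At Egr2, chosen after its values were seen, the WT summit (18.7) was 550 bp downstream of its nearest TSS, and the ΔCTCF summit (5.003), 1622 bp away, lay at −114 bp from another TSS of the gene.

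Within 1 kb of a lost summit lay 194 of 10019 new summits (1.68 to 2.23%), 150 of 7893 shared ΔCTCF summits (1.62 to 2.23%) and 2.84% (2.62 to 3.06) of gene starts. The median distance from a new summit to the nearest lost summit was 40178 bp (38898 to 41913), against 35452 bp (34291 to 36964) from shared ΔCTCF summits and 43119 bp (41995 to 44192) from all protein-coding gene starts. Within 10 kb of a lost summit lay 18.04% (17.3 to 18.8) of new summits, 22.8% (21.9 to 23.7) of shared summits and 17.1% (16.6 to 17.6) of gene starts. New promoter peaks were closer (32211 bp, 30266 to 33878) than new distal peaks (45380 bp, 43602 to 47199). The median moved between 32339 and 49410 bp with the processing. From the side of the lost sites, the nearest new summit was a median of 65455 bp away and the nearest shared summit 71764 bp. New summits outnumbered shared ones, 10019 against 7893, and the part of this in the distances was not tested. From shared WT summits the nearest new summit was a median of 50962 bp away (48636 to 53170), closer than from lost ones.

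**Figure D5:**
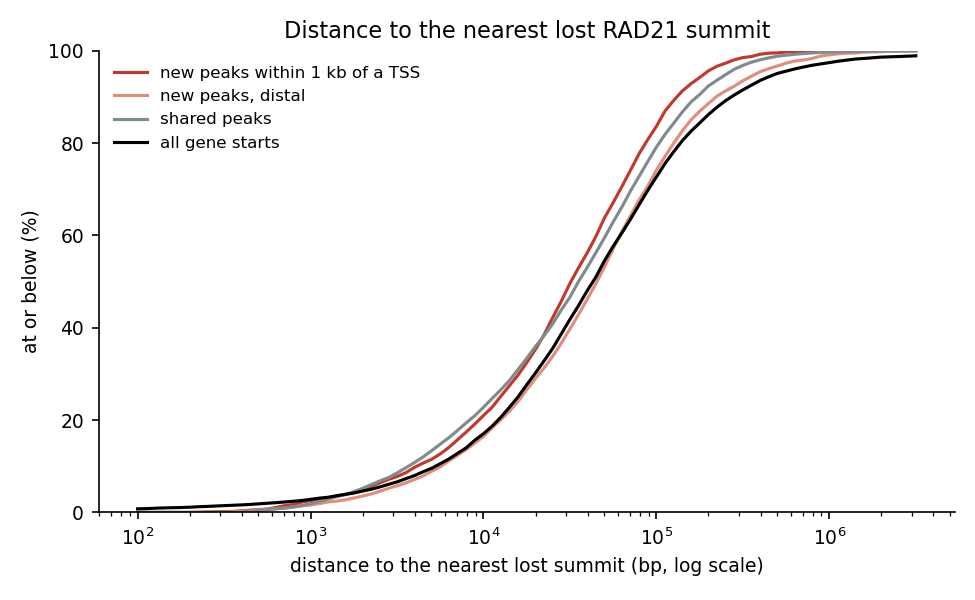
Cumulative share, in percent, of summits or gene starts by distance to the nearest lost summit in bp (log axis). The curves for new distal peaks and all gene starts run close together, and beyond about 2 kb new promoter peaks lie to their left, with a median of 32211 bp.

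Gene by gene, 529 of the 3076 gained promoters (17.2%, 15.9 to 18.6) had a lost summit within 10 kb of the TSS. Read from gene starts, the shares were 16.8% of gained, 29.6% of kept, 13.1% of genes with no peak and 17.1% of all. Gained genes and those with no peak have no WT summit within 1 kb of a TSS by definition. The nearest lost site of all 3076 was downstream of the TSS at 47.9% and inside the gene at 18.7%. No share over all genes is given for these positions or for the lost promoters that follow. Conversely 91 of 849 lost promoters (10.7%, 8.81 to 13.0), which by definition have no ΔCTCF summit within 1 kb of a TSS, had a new peak within 10 kb. Over all 1124 lost peaks near a TSS, without that limit, 21.5% (19.2 to 24.0) had a new summit within 10 kb, against 12.1% (11.6 to 12.8) of lost distal peaks. Among gained promoters, which by definition have no WT summit within 1 kb of a TSS, the new summits closest to a lost one were 330 bp apart at Basp1 (new 3.81, lost 25.8), 520 bp at Gtf3c6 (7.62 and 7.19), 625 bp at Ldlrad4 (3.24 and 5.61), 628 bp at Gata3 (3.57 and 14.8) and 635 bp at Ntng2 (3.81 and 3.91). The lost site sat on a CTCF peak of WT at Basp1, Gtf3c6 and Gata3. Of these 5 new peaks only that of Gtf3c6 was likely to pass at the depth of WT (99.4%), the others having chances of 28.1% to 37.3%.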

How the data were processed

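RAD21 was measured by ChIP-seq in CTCF-degron mESCs. Reads were aligned by the authors to mm10 (Bowtie 2) and filtered for quality and PCR duplicates (SAMtools), and MACS called peaks in each library on its own. The spike-in did not enter the peak lists, and use of an input control is not given in the sources used here. Each deposited list holds a position, a score (10 times the −log10 q-value, rounded down, not used), the fold enrichment, −log10 of both p-value and q-value, and the summit offset. As deposited, fold enrichment is the ratio of (pileup + 1) to (background + 1).

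Peaks overlapped when they shared at least 1 bp, and the overlaps differed from those of bedtools 2.31.1 for 0 peaks. Promoters were the TSSs of all transcripts of 21938 protein-coding genes in GENCODE vM21, with the summit within 1 kb. Sequence came from the RefSeq copy of GRCm38, and windows that touched an untranslated region or lay on chromosome 18 are not shown. Where a promoter had several summits, the strongest was described. Shares carry Wilson 95% intervals and medians order-statistic intervals. With 1 list per group, no test was run.

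The lists give no read totals. Pileup and background were solved from fold enrichment and −log10 p, which matched within 0.001 for all peaks of the RAD21 lists, and the lowest background divided by the smallest width served as the depth index. The expected result of thinning ΔCTCF to 0.459 of its depth was computed from the binomial distribution. Functions were tested on simulated data with known answers. Python 3.11.15, pandas 2.3.3 and scipy 1.17.1 were used.

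Genes were named by rank: the 10 strongest gained and 10 strongest lost promoters, the 5 largest rank changes each way, the 3 largest shifts, the 5 closest new and lost pairs, and members of the gene lists. Some genes that this rule selects are not reported here. A member named for a list beyond its 3 strongest was chosen after its value was seen. The members, gene lists and comparisons were chosen with earlier results of these data known.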

Additional observations from a re-analysis of the deposited data

Results flagged for a closer look

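As listed, the number of promoters with a RAD21 peak differed in opposite directions with auxin in the 2 lines, and the direction in parental cells depended on depth. In parental cells it was 2096 in WT and 4323 in ΔCTCF, higher by 2227. In Maz knockout cells it was 2566 in ΔMAZ and 1500 in ΔCTCF/ΔMAZ, where it fell by 1066. The difference was not tested, since each condition had 1 list. The lists held 20371, 17912, 20872 and 6400 peaks in the same order, and the depth of ΔCTCF/ΔMAZ was 0.931 times that of WT against 2.18 times for ΔCTCF. With ΔCTCF thinned to the depth of WT, 1946 gained against 1055 lost promoters were expected in parental cells, which keeps the direction. With the stricter limit, 481 gained against 1333 lost were expected, so that the parental number was lower after auxin, as in the knockout line. The knockout lists were not thinned.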

How the results depend on the processing

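No paired analysis was possible because WT and ΔCTCF were single lists. Of 66 alternatives over 13 results, 29 left the value within 1.5 times (counts) or within its interval, 34 moved it and 3 turned its sign.
Gained promoters numbered 1670 with −log10 q of at least 5, 1946 after thinning and 481 with the stricter limit. Lost promoters numbered 1478 at 2.5 kb, 1314 over all annotated genes, 542 at gene starts only and 1333 with the stricter limit. Kept promoters numbered 1981 at 2.5 kb, 819 at gene starts only and 588 with the stricter limit.
The summit shift was 17 bp both with −log10 q of at least 5 and with equal list lengths. The width change turned to −0.00845 (log2) with 50% reciprocal overlap and to −0.0177 with equal list lengths. The rank change at promoters was 2.83 with reciprocal overlap and 0.162 with −log10 q of at least 5. At distal sites it was 0.490 with reciprocal overlap, −2.85 with −log10 q of at least 5 and 1.95 with equal lengths. The distance of new to lost sites was 32339 bp with reciprocal overlap, 43003 bp with a gap of 500 bp, 43825 bp with −log10 q of at least 5 and 49410 bp with equal lengths.
MAZ at gained promoters was 24.2% with reciprocal overlap, 44.2% with the gap, 33.1% with −log10 q of at least 5, 35.3% at 2.5 kb and 34.4% with the MAZ list of WT. CTCF at lost promoters was 78.3% with reciprocal overlap, 84.8% with −log10 q of at least 5, 86.0% at 2.5 kb and 89.3% with equal lengths. The cause of these moves was not tested. The rank changes split by CTCF kept their signs under 2 alternatives chosen after seeing the data. Depth limits every gain and loss.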

Other observations

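The X and Y chromosomes stood apart from the autosomes, and the cause was not tested. Of the 948 protein-coding genes on X, 9 gained a RAD21 peak (0.949%), 14 lost (1.48%) and 4 kept one (0.422%). Of the 183 on Y, 0 gained, lost or kept one. On the 19 autosomes the gained share ran from 11.0% to 19.1%, the lost share from 2.99% to 5.01% and the kept share from 3.44% to 9.75%. The X chromosome held 1.92% (1.74 to 2.12) of RAD21 peaks in WT and 0.944% (0.812 to 1.10) in ΔCTCF. CTCF peaks were on X at 2.02% (1.86 to 2.20) in WT and 0.798% (0.511 to 1.24) in ΔCTCF, and MAZ peaks at 0.878% in WT and 1.14% in ΔCTCF.

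New peaks away from promoters also held the strings found at new promoter summits. The GC box was in 6.04% of new distal summits against 2.29% of flanking windows, the MAZ string GGGGAGGG in 5.69% against 3.79% and the ETS string in 2.27% against 1.01%. The octamer ATGCAAAT, which POU factors such as OCT4 recognise, was within 201 bases centred on the summit at 3.08% (2.69 to 3.53) of 6561 new distal summits, against 1.23% (1.06 to 1.44) of flanking windows. At lost distal summits it was in 0.821% against 1.08%. The YY1 string AAGATGGCG was in 0.706% (0.568 to 0.878) of lost distal and 0.785% (0.602 to 1.02) of shared distal summits, against 0.0839% and 0.0799% of their flanks, while 0.107% of new distal summits and the same share of their flanks held it. Gained promoters were more often head to head with another protein-coding gene within 1 kb (16.9%, 15.6 to 18.3) than lost (9.07%, 7.32 to 11.2) or kept ones (11.5%, 9.89 to 13.4), against 11.0% of all genes. A peak between such a pair counts both genes.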
